A study of Mus musculus with 8 samples.

Results

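The genes described here are 41 markers of macrophages and other myeloid cells. They were read in whole pancreatic tumors that had grown in mice with or without complement component 3 (C3), a protein common to every route of complement activation. They were taken by symbol from the 29968 genes of the table, and 40 of the 41 had enough reads to be tested. They comprised 4 leukocyte genes, 8 core macrophage genes, 7 tissue-resident markers, 4 markers of monocyte-derived cells, 6 lipid-associated markers, 3 activation-state genes, 5 Fc receptors and adaptors, 3 pattern and scavenger receptors, and 1 lysosomal protease.

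Macrophages in a tumor come from more than 1 source. Some descend from cells that seeded the tissue early in life and maintain themselves there, and these often carry Lyve1, Timd4, Folr2 and Cd163. Others arise from blood monocytes, which enter through Ccr2 and carry Ly6c2 and Plac8 before they mature. Lipid-associated macrophages, marked by Trem2, Spp1 and Gpnmb, are known for handling lipid from damaged tissue and for lysosomal activity. Complement bears on all of them, since C3 fragments are ligands for the receptor whose alpha chain is encoded by Itgam, and macrophages themselves make complement proteins.

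The tumors came from KPC FC1245 cells, a line derived from the pancreatic tumor of a genetically engineered mouse. A dose of 250000 cells in 50 µL was injected into the pancreas of male C57BL/6J (WT) or C3-/- mice, bought at 12 weeks of age, and the 8 libraries, 4 per genotype, came from tumors with an endpoint at day 14 after surgery. The deletion was in the host only: the injected cells were the same in both groups, were a single line and kept their own C3 gene. The sources give no more than that the 4 libraries of a group are biological replicates, so the p-values measure the spread between these libraries.

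C3 itself was lower in every C3-/- tumor. Its CPM, the read count scaled to a common library size with TMM factors, were 210, 426, 226 and 324 in WT and 109, 134, 100.3 and 100.7 in C3-/- tumors, so transcript was still present in tumors of the C3-/- hosts. edgeR fitted a log2 fold change of -1.42 (SE 0.23), with an unadjusted p of 8.55e-05 and an adjusted p of 0.933 in its quasi-likelihood test, against an adjusted p of 1.2e-05 by DESeq2. Total counts ran from 13266029 to 23354212 per tumor.

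The markers of the label were present in every tumor. Csf1r, the receptor for the growth factor that macrophages need to survive, had 1138 to 3060 counts, and Cd68 and Mrc1 lay between 23.1 and 198 CPM. Bulk RNA holds all cells of the tumor, so fewer macrophages and less RNA per macrophage cannot be told apart, and several members, such as Spp1, Apoe, Cd14 and the cathepsins, are known to be made by other cells too. Marker lists of other cells varied between tumors. The summed CPM of 8 neutrophil genes was 30.0 to 87.0 in WT and 38.4 to 141 in C3-/- tumors, with C3-/- replicate 1 highest. That of 10 acinar genes ranged over 189 to 513 in WT, and in the C3-/- group replicate 1 stood at 1819 while replicates 2 to 4 read 39.0 to 66.8. The sum of 8 hepatocyte genes was 89.4 in WT replicate 4 and at most 29.1 elsewhere. Skeletal muscle genes varied more than these, and the sum of 10 of them was 1907, 15.4, 30.7 and 4385 CPM in WT and 2080, 23.9, 1707 and 3934 in C3-/- tumors. C3-/- replicate 2 was thus the 1 C3-/- tumor with little muscle RNA, as WT replicates 2 and 3 were among WT, and the part of muscle in its values was not tested.

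The promoter stretches printed here belong to the members on which the results turn, namely Ptprc and Lyve1, for which the genotypes did not overlap in 1 of the comparisons below, and Spi1 and Lyz2, which were high and low in the same C3-/- tumors. Each is the 250 bases before the start site of the canonical GENCODE transcript on GRCm39, 5′ to 3′ on the gene's own strand, and capitals mark GAGGAA or its reverse complement TTCCTC, the core bound by PU.1.
Ptprc (chr1:138103050-138103299, minus strand): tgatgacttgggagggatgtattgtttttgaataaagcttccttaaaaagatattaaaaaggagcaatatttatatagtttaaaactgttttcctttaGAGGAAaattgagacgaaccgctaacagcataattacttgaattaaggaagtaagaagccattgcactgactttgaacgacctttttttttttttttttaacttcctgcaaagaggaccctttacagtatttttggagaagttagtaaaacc
Lyve1 (chr7:110462461-110462710, minus strand): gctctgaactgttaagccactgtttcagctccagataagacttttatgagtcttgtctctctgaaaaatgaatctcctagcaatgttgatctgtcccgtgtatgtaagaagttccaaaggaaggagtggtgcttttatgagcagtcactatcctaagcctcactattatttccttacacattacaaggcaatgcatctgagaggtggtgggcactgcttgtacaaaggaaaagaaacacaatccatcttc
Spi1 (chr2:90926191-90926440, plus strand): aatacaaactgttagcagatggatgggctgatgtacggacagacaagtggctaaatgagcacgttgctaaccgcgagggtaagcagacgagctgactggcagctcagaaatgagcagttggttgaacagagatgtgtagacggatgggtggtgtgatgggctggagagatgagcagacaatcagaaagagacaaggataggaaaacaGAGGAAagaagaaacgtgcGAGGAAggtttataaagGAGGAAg
Lyz2 (chr10:117118227-117118476, minus strand): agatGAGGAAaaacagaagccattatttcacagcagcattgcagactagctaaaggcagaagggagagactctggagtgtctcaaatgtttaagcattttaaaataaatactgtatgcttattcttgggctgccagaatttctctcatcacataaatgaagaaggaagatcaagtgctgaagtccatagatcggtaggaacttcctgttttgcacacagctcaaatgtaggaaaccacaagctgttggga

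PU.1, the product of the member Spi1, is a transcription factor required for the myeloid lineage, and its own promoter held 3 copies of the core. Over the 40 tested members, 19 promoters (47.5%) held GAGGAA on either strand, against 3292 of 13997 promoters (23.5%) of the tested protein-coding genes. TGCTGA, a partial site of the Maf factors, on either strand, stood in 9 of 40 member promoters (22.5%) and in 13.1% of all. A match describes the letters only, and the window of Lyve1 printed above did not hold the PU.1 core.

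Levels can be compared between genes only per length, and for this the deposited FPKM (counts scaled by size factors and by the deposited gene length) were used. That length can differ from the length of a transcript. For Ptprc it was 18313 bases, against 5740 for its longest GENCODE transcript, so levels between genes are approximate. The members ranged from Spp1, the secreted matrix protein osteopontin, at a mean of 3920 FPKM over the 8 tumors to Timd4, a receptor for phosphatidylserine, at 0.0779. Apoe, the lipid carrier, followed Spp1 at 521 FPKM and Lyz2, the lysozyme of myeloid cells, at 461. Both ranges overlapped, 335 to 973 FPKM for Apoe and 303 to 674 for Lyz2, so that their order was not resolved. Below these came Plac8 at 272, the proteases Lgmn at 147, Ctsb at 141 and Ctss at 124. The FPKM ranges of Lgmn, Ctsb and Ctss overlapped throughout.

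**Figure D1:**
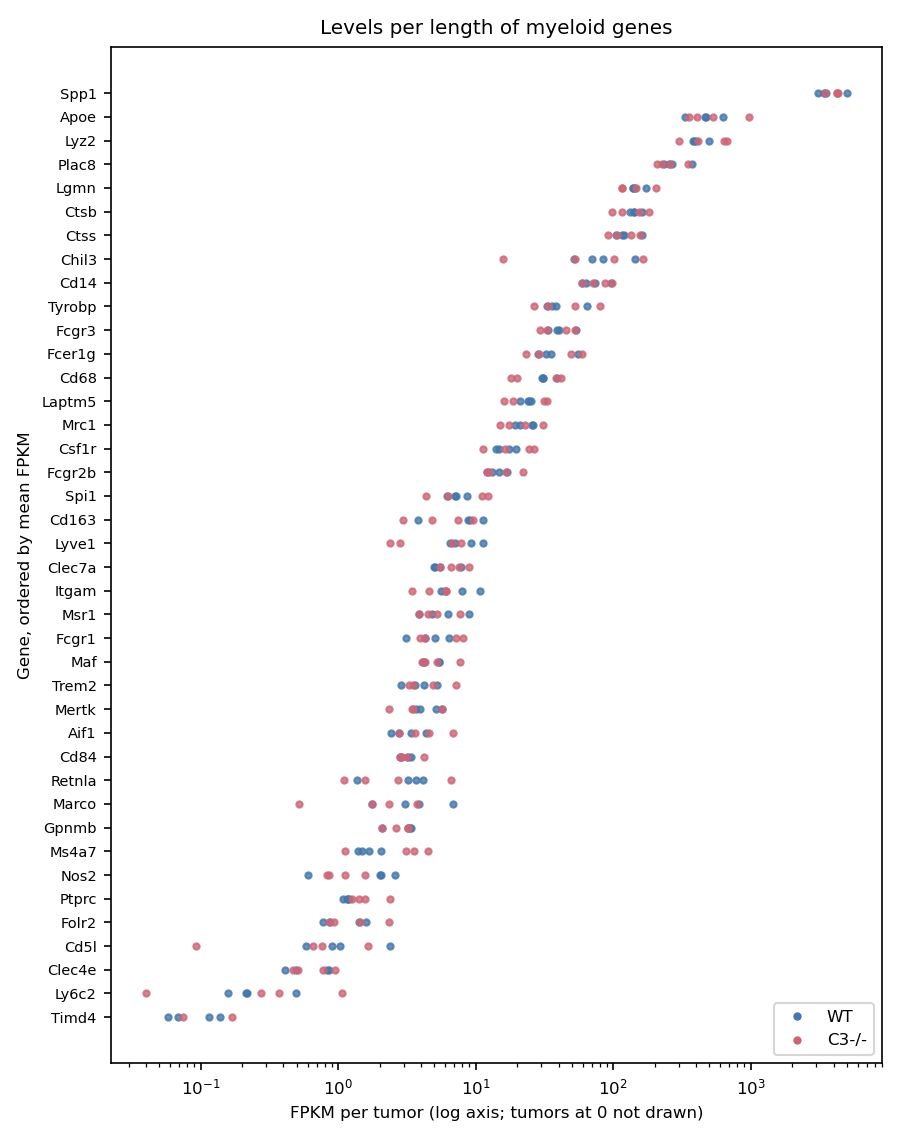
FPKM of the members in each tumor (x axis, log scale; a tumor at 0 is not drawn), with genes ordered by their mean over 8 tumors and points colored by host genotype. Spp1 stands alone at 3105 to 5010 FPKM, and within most rows the 2 colors overlap.

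Among the surface and adaptor genes, Tyrobp and Fcer1g, the signaling adaptors of many myeloid receptors, stood at 45.6 and 39.1 FPKM, and Cd68 at 31.1. The mannose receptor Mrc1 and Csf1r were near each other, at 22.3 and 18.1 FPKM, with ranges of 15.0 to 30.7 and 11.3 to 26.5. Of the tissue-resident markers other than Mrc1, the haemoglobin scavenger receptor Cd163 (7.21) and the hyaluronan receptor Lyve1 (6.74) were the more abundant, and Marco (2.98), Folr2 (1.28) and Cd5l (1.007) lay below them. The classical monocyte marker Ly6c2 was at 0.354 FPKM, with only 2 to 63 counts per tumor. Ly6c2 also shares 14.2% of its 150-base windows with Ly6c1, and its values are uncertain for that reason.

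None of the 40 tested members passed the test between genotypes. By edgeR with Benjamini-Hochberg adjustment over 16610 genes, 0 members had an adjusted p below 0.05, where 0.0% of all genes did (0 of 16610). DESeq2 also called 0 members, against 0.0848% of the genes it tested (16 of 18864). The members were split nearly evenly, 21 higher and 19 lower in C3-/- tumors, with a median log2 fold change of 0.07 against -0.0001 for all genes. At an unadjusted p below 0.05, 2 members were higher, where 3.03% of all genes were, and 2 were lower, where 2.07% were. The intervals of single members stayed wide: for Csf1r the log2 fold change was 0.26 (95% interval -0.29 to 0.81, and 0.077 without C3-/- replicate 4 to 0.45 without C3-/- replicate 2), so a difference of that size in either direction was not resolved with 4 tumors per group.

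**Figure D2:**
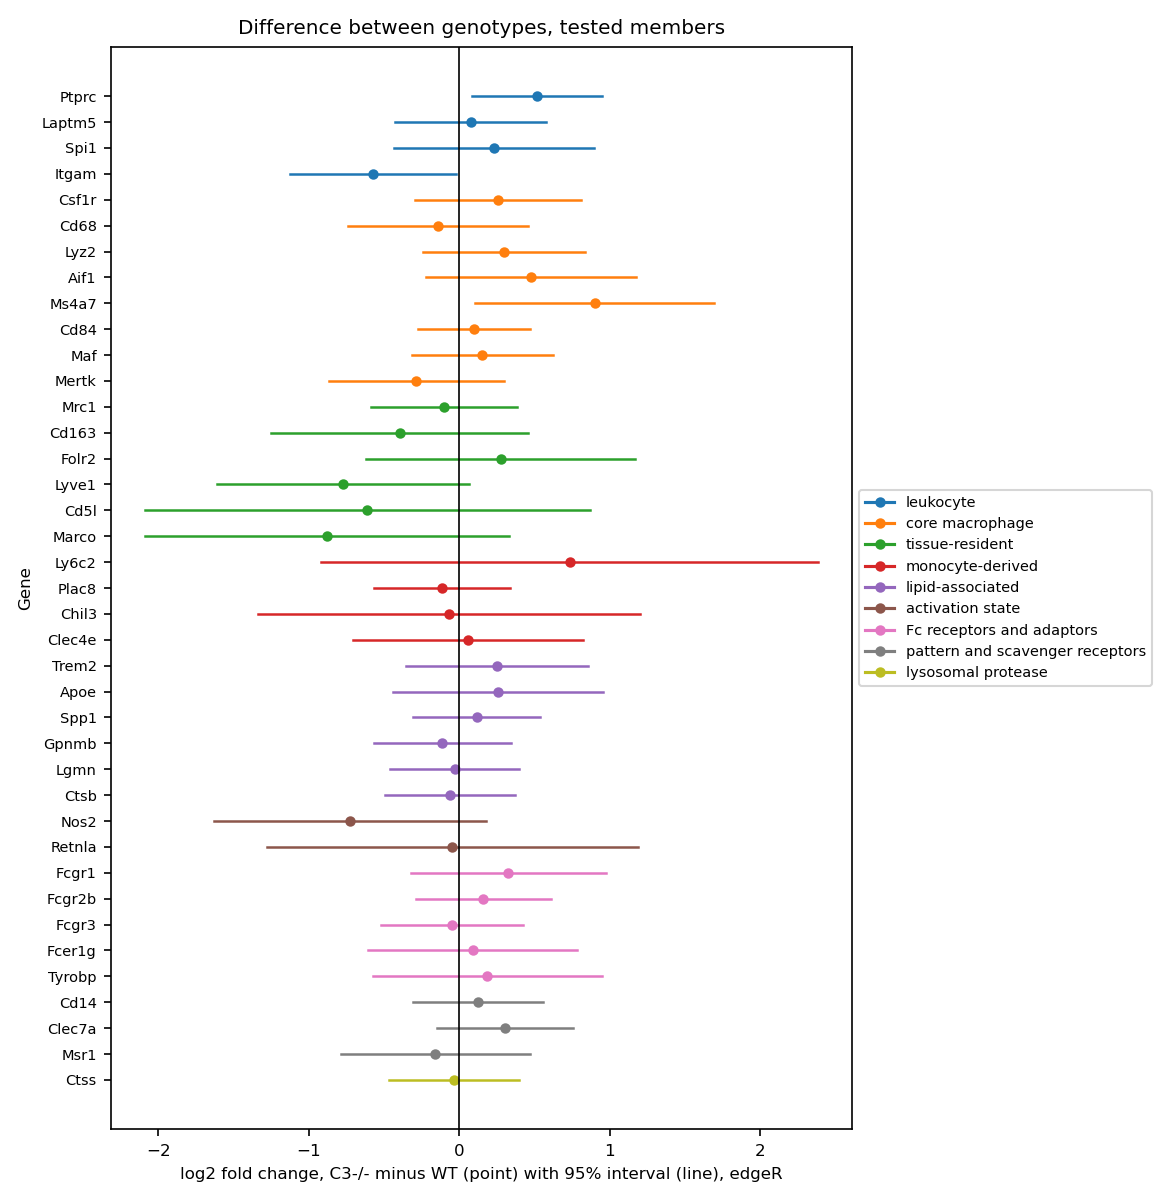
Log2 fold change of tested members, C3-/- minus WT (x axis), with the 95% interval from edgeR (line), colored by list. The intervals of Ptprc and Ms4a7 lie above 0 and that of Itgam below 0, and no member passed adjustment.

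Ptprc (chr1:137990599-138103446 on mm39), which encodes the phosphatase CD45 carried by all white blood cells, was higher in each C3-/- tumor than in each WT tumor. It read 21.5, 21.5, 20.1 and 22.3 CPM in WT and 26.2, 23.3, 28.8 and 44.0 in C3-/- tumors. The WT values were tight and the C3-/- values spread upward, led by replicate 4. By edgeR the difference was 0.52 on the log2 scale (SE 0.19, adjusted p 0.965), falling to 0.29 without C3-/- replicate 4, and an exact permutation test over the 70 splits of 8 tumors gave a two-sided p of 0.0286, the smallest it can give. Groups that did not overlap in this direction made up 2.28% of all genes, and those in the other direction 1.45%. The summed CPM of 11 lymphocyte genes, whose cells also carry CD45, was 2.72 to 6.34 in WT and 3.30 to 10.8 in C3-/- tumors. Only 4 of these 11 genes, 5 of 8 dendritic cell and 7 of 8 neutrophil genes had enough reads to be tested. The filter can keep a low gene for its reads in 1 group alone, so counts of direction among them cannot show a rise. Higher in C3-/- tumors were 4 of 4 lymphocyte (median log2 fold change 0.66), 4 of 5 dendritic cell (0.56) and 5 of 7 neutrophil genes (0.39). At an unadjusted edgeR p below 0.05 these lists had 1, 1 and 2 higher genes, where 3.03% of all genes were higher. The part of these cells in Ptprc was not tested.

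The activation-state genes Nos2 and Retnla overlapped between genotypes. Nos2, which makes nitric oxide, read 2.67, 11.6, 9.04 and 9.28 CPM in WT and 3.84, 5.04, 3.72 and 7.05 in C3-/- tumors. WT replicates 2, 3 and 4 were above all C3-/- tumors and WT replicate 1 was below all of them, with a log2 fold change of -0.73 (SE 0.41). Retnla, a small secreted protein induced by interleukin 4, overlapped fully at 0.83 to 2.49 CPM in WT and 0.672 to 3.98 in C3-/- tumors, a log2 fold change of -0.05.

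**Figure D3:**
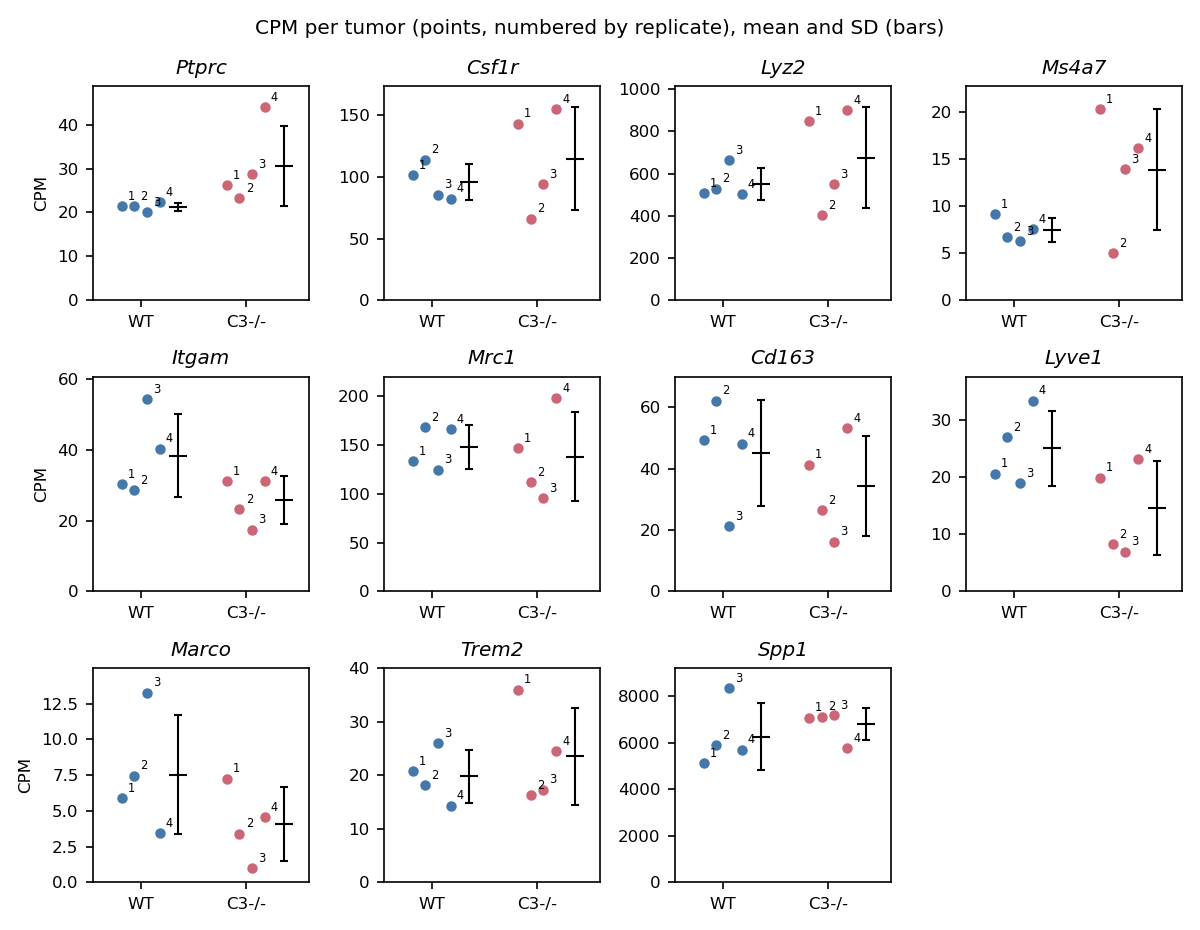
CPM of 11 members in each tumor (points, numbered by replicate) with the mean and SD of each genotype (bars); every y axis starts at 0. The genotypes do not overlap for Ptprc, and for Csf1r, Lyz2 and Ms4a7 the C3-/- tumors spread on both sides of the WT tumors.

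Itgam, the alpha chain of complement receptor 3, was lower in C3-/- tumors before adjustment. It read 30.3, 28.5, 54.2 and 40.3 CPM in WT and 31.2, 23.2, 17.5 and 31.2 in C3-/- tumors. The groups overlapped, with WT replicates 1 and 2 within the C3-/- range, and the log2 fold change was -0.57 (SE 0.25, edgeR adjusted p 0.971). Its count is uncertain, since 68.1% of the 150-base windows of Itgam are shared with the overlapping gene Gm49368 on the same strand, which itself had 0 to 2 counts. Laptm5, a lysosomal protein of leukocytes, and Spi1 differed by less than their errors, with log2 fold changes of 0.07 and 0.23.

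Of the 8 core macrophage genes, 6 were higher and 2 lower in C3-/- tumors, with a median log2 fold change of 0.21 and none past adjustment. Csf1r read 102, 114, 85.7 and 82.4 CPM in WT and 143, 66.2, 94.4 and 155 in C3-/- tumors. Lyz2 read 506, 529, 663 and 503 CPM in WT and 849, 404, 551 and 900 in C3-/- tumors. For both, C3-/- replicates 1 and 4 were above every WT tumor and replicate 2 was below every one. Cd68, a glycoprotein of the lysosomal membrane, read 38.9, 39.1, 49.4 and 38.5 CPM in WT and 53.1, 23.1, 25.1 and 49.1 in C3-/- tumors, which left its log2 fold change at -0.14 (SE 0.27).

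Ms4a7, a membrane protein of mature macrophages, had the largest fitted rise among the tested members. It read 9.14, 6.71, 6.25 and 7.57 CPM in WT and 20.3, 5.04, 13.9 and 16.1 in C3-/- tumors. C3-/- replicates 1, 3 and 4 were above all WT tumors and replicate 2 was below them, and the log2 fold change was 0.90 (SE 0.36, edgeR adjusted p 0.971). Aif1 (0.48), Maf (0.15) and Cd84 (0.10) were higher by less than their 95% intervals could resolve, and Mertk, a receptor by which macrophages take up dying cells, was at -0.28.

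The tissue-resident markers were mostly lower in C3-/- tumors, 5 of 6 tested, with a median log2 fold change of -0.50 (-0.73 without C3-/- replicate 1 and -0.22 without C3-/- replicate 3), and none passed the test at an unadjusted p below 0.05. Lyve1 (chr7:110449814-110462446) read 20.7, 27.1, 19.1 and 33.5 CPM in WT and 19.98, 8.35, 6.997 and 23.2 in C3-/- tumors. C3-/- replicates 2 and 3 were far below all other tumors, and replicates 1 and 4 lay within the WT range. The fitted difference was -0.78 on the log2 scale (SE 0.38, edgeR adjusted p 0.971). Marco, a scavenger receptor, read 5.91, 7.46, 13.3 and 3.45 CPM in WT and 7.25, 3.42, 1.009 and 4.54 in C3-/- tumors, a log2 fold change of -0.88 (SE 0.54) that ran from -1.32 without C3-/- replicate 1 to -0.45 without WT replicate 3.

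Cd163 read 49.3, 62.2, 21.2 and 48.2 CPM in WT and 41.3, 26.5, 16.2 and 53.3 in C3-/- tumors, a log2 fold change of -0.40 that ran from -0.69 without C3-/- replicate 4 to -0.17 without C3-/- replicate 3. Cd5l, a secreted protein of resident macrophages, read 2.12, 1.21, 4.90 and 1.87 CPM in WT and 3.37, 1.34, 0.189 and 1.59 in C3-/- tumors. C3-/- replicate 3 was the lowest tumor for Lyve1, Marco, Cd163 and Cd5l alike. Mrc1 (-0.10) and Folr2 (0.27), the folate receptor of macrophages, did not separate, at 125 to 169 CPM in WT and 95.9 to 198 in C3-/- tumors for Mrc1. Timd4 had at most 8 counts in any tumor and 0 in C3-/- replicates 2 and 3, too few to test.

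Some groups of markers of other cells had medians below 0 like the tissue-resident genes, with 0 of their genes past an adjusted edgeR p of 0.05. Hepatocyte genes were lower in C3-/- tumors in 5 of 6 tested, with a median of -1.97 on the log2 scale. At an unadjusted edgeR p below 0.05, 3 were lower, where 2.07% of all genes were, and the same share stands beside the lists below. Their sum was 89.4 CPM in WT replicate 4, 17.8 to 29.1 in the other WT tumors and 13.4 to 26.0 in C3-/- tumors. Adipocyte genes were lower in 4 of 4 tested (median -1.04, 0 at an unadjusted p below 0.05), with sums of 86.6 to 421 CPM in WT, highest in replicate 2, and 91.2 to 171 in C3-/- tumors. All 4 mesothelial genes were lower, 2 of them at an unadjusted p below 0.05 and 2 with groups that did not overlap (1.45% of all genes). Their median was -0.95, and Upk3b read 2.43, 4.67, 3.99 and 4.85 CPM in WT against 2.34, 1.29, 0.883 and 1.37. Their summed CPM, of which Msln makes up most, was 484 to 569 in WT and 363 to 547 in C3-/- tumors. Lyve1 is also a marker of lymphatic endothelium, and a list of 4 lymphatic genes, added after the values were seen, stood at a median of -0.75 on the same scale, with 1 of 4 at an unadjusted p below 0.05, and summed to 13.1 to 34.3 CPM in WT and 15.3 to 23.5 in C3-/- tumors. Clec4f, a defining gene of liver macrophages, was at 0 in 6 of 8 tumors and at 2 counts or fewer in the others. The part of hepatocytes, adipocytes, mesothelial and lymphatic cells in the tissue-resident values was not tested.

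Read relative to Csf1r, a step chosen after the values were seen, Lyve1 was the 1 member whose genotypes separated. The ratio of Lyve1 to Csf1r in CPM was 0.203, 0.237, 0.222 and 0.406 in WT and 0.140, 0.126, 0.0742 and 0.150 in C3-/- tumors. No C3-/- tumor reached the WT range of this ratio, although the same tumors overlapped in Lyve1 alone. The log2 ratio differed by -1.12 and the exact permutation p was 0.0286, and among all genes 0.789% separated in this direction and 0.144% in the other. Markers of other cells also lay below their WT range once divided by Csf1r, in 4 of 7 fibroblast, 2 of 4 mesothelial and 1 of 6 hepatocyte genes, so the separation was not particular to Lyve1. With other references the difference was -1.41 for Ptprc, -1.16 for Lyz2 and -0.79 for Mrc1, each at an exact permutation p of 0.0286, and -0.70 for Cd68, where that p was 0.0571. All of these ratios reuse the same Lyve1 values, and Ptprc was itself higher in each C3-/- tumor. They are therefore not separate support. For Cd68 relative to Csf1r the exact permutation p was 0.0857.

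Markers of monocyte-derived cells did not move together, with 2 higher and 2 lower and their fold changes had a median of -0.0036 on the log2 scale. Plac8 read 378 to 602 CPM in WT and 336 to 568 in C3-/- tumors. Chil3, a chitinase-like protein of myeloid cells, read 85.1, 115, 239 and 140 CPM in WT and 274, 166, 26.1 and 86.6 in C3-/- tumors, so that the C3-/- group held both the highest and the lowest tumor. Ly6c2 (0.73, SE 0.74) and Clec4e (0.06, SE 0.34), a receptor for damaged cells and mycobacterial lipid, had errors as large as or larger than their fold changes.

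Of the lipid-associated members 3 were higher and 3 lower, with a median log2 fold change of 0.04 and 95% intervals that all held 0. Trem2, the lipid-sensing receptor for which the cell state is often named, read 20.7, 18.2, 26.1 and 14.3 CPM in WT and 35.98, 16.4, 17.3 and 24.4 in C3-/- tumors. Apoe read 1010, 1348, 1013 and 725 CPM in WT and 2104, 772, 869 and 1153 in C3-/- tumors. Both were highest in C3-/- replicate 1, the tumor with the highest neutrophil and acinar sums, and their log2 fold changes were 0.25 (SE 0.27) and 0.26 (SE 0.31). Leaving out C3-/- replicate 1 took these to -0.03 and -0.14.

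Spp1 was steadier, at 5119, 5886, 8347 and 5698 CPM in WT and 7076, 7112, 7192 and 5768 in C3-/- tumors, with a log2 fold change of 0.12 (95% interval -0.31 to 0.54). Gpnmb (-0.11), Lgmn (-0.03) and Ctsb (-0.06) differed by less than 1 SE each. Their 95% intervals lay within -0.57 and 0.40 on the log2 scale. Among the Fc receptors and adaptors 4 were higher and 1 lower with a median of 0.16, from Fcgr3 at -0.05 to Fcgr1, the high-affinity receptor for IgG, at 0.33, and with Fcgr2b (0.16), Fcer1g (0.09) and Tyrobp (0.19) between them. The endotoxin coreceptor Cd14 (0.12), the beta-glucan receptor Clec7a (0.30), the scavenger receptor Msr1 (-0.16) and the protease Ctss (-0.04) did not pass the test either.

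The C3-/- tumors varied more among themselves than the WT tumors did in most members, which is described here without a test. The SD of log2(CPM + 0.1) was larger in C3-/- than in WT tumors for 33 of 40 members (82.5%), against 53.6% of all genes. The same held for some lists of other cells, with 7 of 7 fibroblast, 9 of 9 acinar, 6 of 7 neutrophil and 5 of 6 tumor epithelium genes. It also held for 4 of 5 dendritic cell and 3 of 4 blood endothelial genes. In other lists it held for 0 of 10 skeletal muscle, 0 of 4 adipocyte, 2 of 6 hepatocyte and 2 of 4 mesothelial genes. Among lymphocyte, mast cell and lymphatic genes it held for 1 of 4, 1 of 5 and 0 of 4. The median SD over the members was 0.32 in WT and 0.52 in C3-/- tumors, where all genes had 0.28 and 0.31. The SD was larger in C3-/- tumors for 8 of 8 core macrophage genes, 6 of 6 tissue-resident genes and 5 of 5 Fc receptors and adaptors, for 4 of 6 lipid-associated genes and for 1 of 3 pattern and scavenger receptors. For Laptm5 it was 0.11 in WT and 0.53 in C3-/- tumors, and for Csf1r 0.22 and 0.57.

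The median of the members relative to each gene's own mean, on the log2 scale, was -0.07, -0.04, 0.29 and -0.07 in WT and 0.39, -0.36, -0.28 and 0.38 in C3-/- tumors. C3-/- replicates 1 and 4 were thus high and replicates 2 and 3 low, on either side of the WT tumors. For the core macrophage genes the C3-/- values were 0.49, -0.47, -0.14 and 0.56, and the WT values ran from -0.18 to 0.04. The lists that follow also had replicates 1 and 4 above replicates 2 and 3, but differed in where these stood against the WT tumors. For the tissue-resident genes the C3-/- values were 0.22, -0.45, -1.24 and 0.45, with replicates 1 and 4 inside the WT range of -0.03 to 0.50. The monocyte-derived genes read -0.53, -0.13, 0.64 and 0.04 in WT and 0.82, -0.33, -0.01 and 0.05 in C3-/- tumors. The activation-state values, medians of 3 genes, were 0.11 to 0.62 in WT and -0.69 to 0.05 in C3-/- tumors. Nos2 and Retnla each overlapped between genotypes. Fibroblast genes were also low in C3-/- replicate 2 (-0.84) and highest in replicate 4 (0.47), and their part in the spread was not tested.

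**Figure D4:**
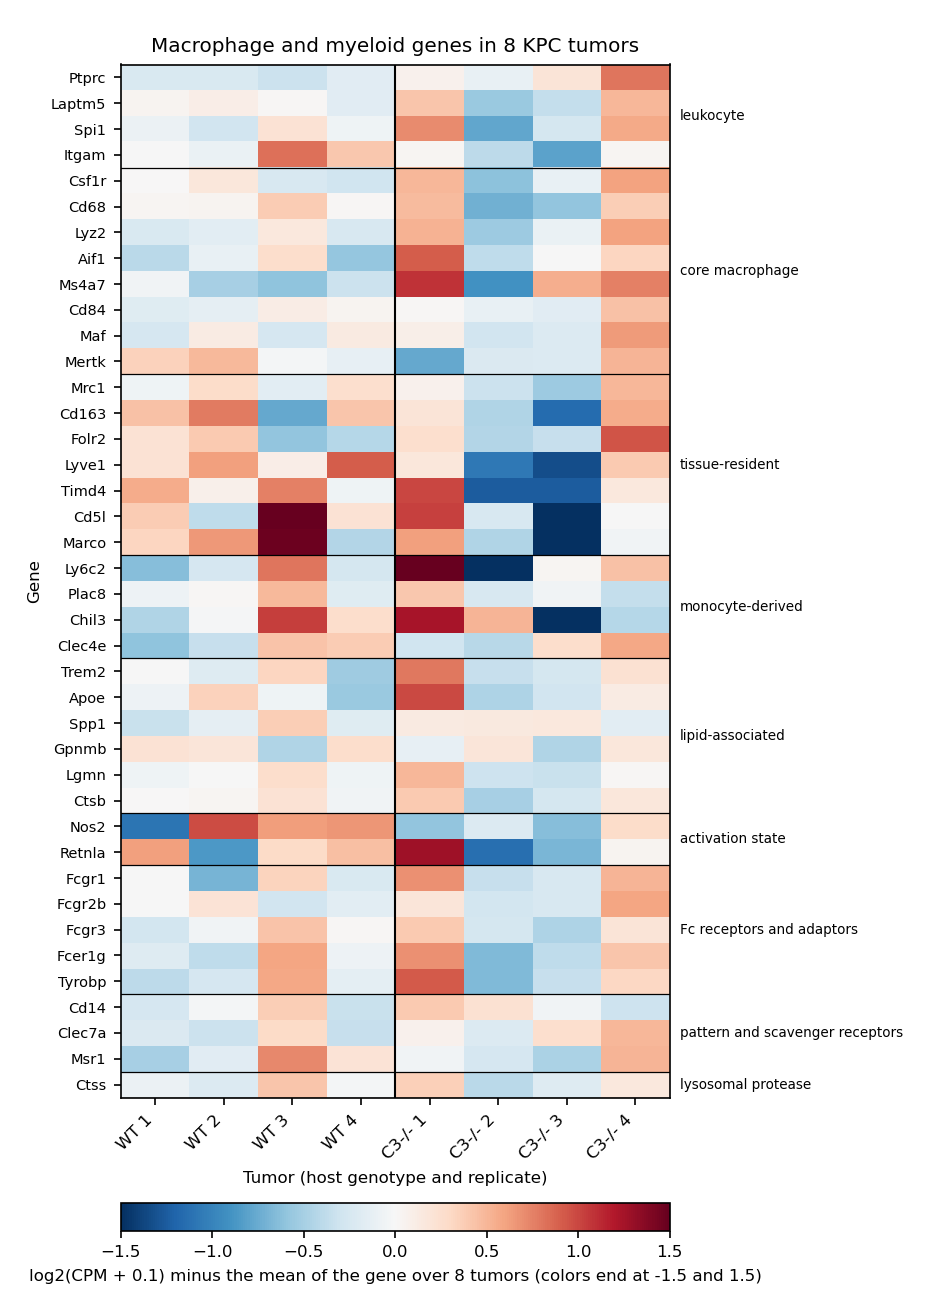
Each row is 1 gene and each column 1 tumor; color gives log2(CPM + 0.1) minus the mean of that gene over the 8 tumors. The C3-/- columns 1 and 4 are mostly red and columns 2 and 3 mostly blue, where the WT columns are paler except for WT 3.

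Members were then compared with Csf1r across the 8 tumors, over 39 members, by Pearson's r of log2 CPM with permutation over all 40320 orders. The points share library depth and tissue composition. As many as 9 members had r above 0.7, where 2.67% of all genes did (444 genes). Laptm5 had r = 0.93 (rho = 0.93) and Fcgr2b, the inhibitory Fc receptor, r = 0.90 (rho = 0.86), each with an exact permutation p adjusted over the 39 members of 0.0376 for r, and of 0.087 and 0.139 for rho. Without C3-/- replicates 2 and 4, the tumors farthest from the median of Csf1r, r was 0.80 for Laptm5 and 0.86 for Fcgr2b. Within genotypes, after each group's mean was removed, it was 0.95 and 0.89.

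Folr2 (r = 0.88), Lyz2 (0.85), Spi1 (0.805), Ms4a7 (0.80), Apoe (0.78), Ctsb (0.74) and Maf (0.74) followed. None of these passed adjustment. Without C3-/- replicates 2 and 4, r fell to 0.375 for Maf, 0.54 for Spi1, 0.57 for Ctsb, 0.62 for Lyz2 and 0.65 for Ms4a7, so that these relations rested in part on those tumors, while it was 0.82 for Folr2 and rose to 0.95 for Apoe. Among the 4 WT tumors alone, too few for a coefficient, Spi1, Lyz2 and Ctsb did not rise with Csf1r. Members with r below 0 included Spp1 (-0.29), Cd14 (-0.15), Nos2 (-0.06) and Chil3 (-0.02). The 4 markers of monocyte-derived cells ranged from -0.02 to 0.70.

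**Figure D5:**
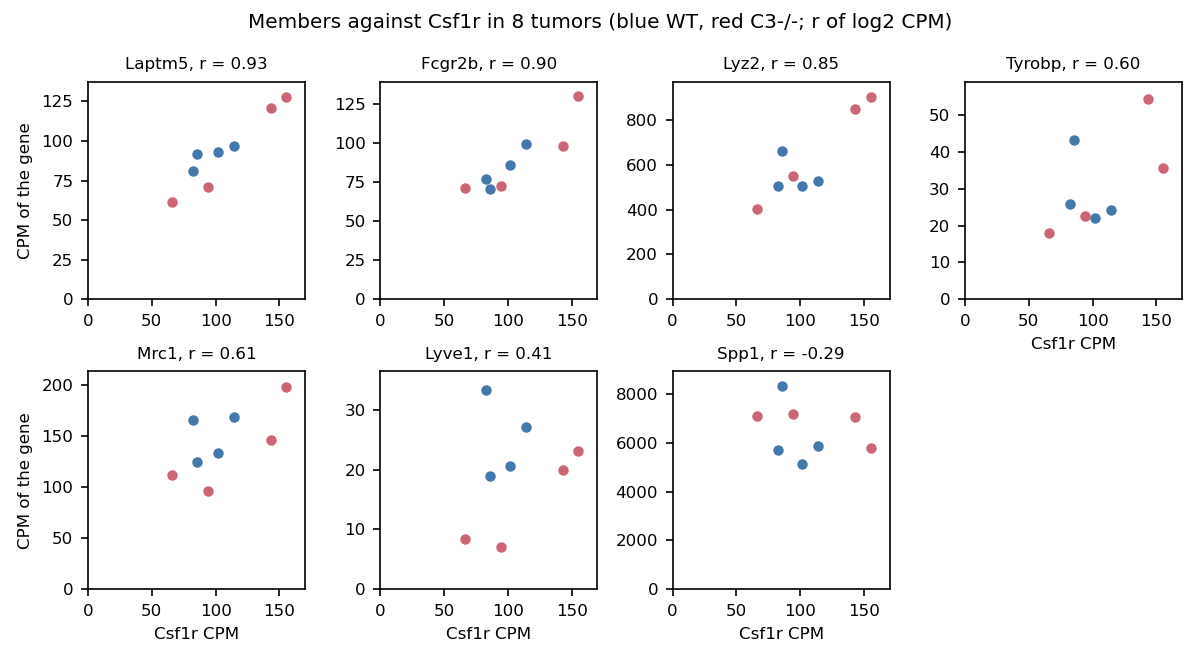
CPM of 7 members (y axes) against CPM of Csf1r (x axes) in the 8 tumors, blue for WT and red for C3-/-, with Pearson's r of log2 CPM above each panel. Laptm5 and Fcgr2b rise along Csf1r in both genotypes, the red points of Lyve1 lie lower than the blue points at like Csf1r, and Spp1 shows no common slope.

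In the whole table the genes whose pattern was most like that of Csf1r over the 8 tumors, by Pearson's r, were Unc93b1 (0.99), Mapk14 (0.97), Mcm5 (0.97), Gm9816 (0.96), Gpr153 (0.96), Adgre1 (0.96), Prim1 (0.95), Exosc10 (0.95), Cd300c2 (0.94) and Slc9a9 (0.94). Adgre1, which encodes the macrophage antigen F4/80, and Unc93b1, a chaperone of endosomal Toll-like receptors, are genes of myeloid cells, while Mcm5 and Prim1 act in DNA replication in any dividing cell. With 8 tumors, 23 genes (0.138% of those tested) had r above 0.9, and 1 of them was a member.

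A further 71 genes of the same pathways were followed, of which 70 were tested, and 40 were higher and 30 lower in C3-/- tumors, with 0 past edgeR's adjusted test and 1 past that of DESeq2. Of 20 other macrophage genes 17 were higher and 3 lower, with a median of 0.17 on the log2 scale. This count does not show a rise in each C3-/- tumor. Relative to each gene's own mean, the median of these 20 genes was 0.48 and 0.41 in C3-/- replicates 1 and 4. It was -0.38 and -0.24 in C3-/- replicates 2 and 3, against -0.26 to 0.14 in WT. Only 1 was higher at an unadjusted edgeR p below 0.05, and 0 had groups that did not overlap in CPM. The 9 other tissue-resident genes had a median of -0.10, the 10 tested monocyte genes 0.12, the 16 other lipid-associated genes -0.13 and the 15 growth factors and regulators 0.03. Csf1 and Il34, the ligands of Csf1r, were at 0.28 (SE 0.24) and 0.10 (SE 0.16).

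The gene with the smallest p among them was Cx3cr1, the fractalkine receptor of patrolling monocytes and of many tissue macrophages. It read 12.1, 11.4, 11.3 and 10.7 CPM in WT and 18.7, 17.8, 24.7 and 27.6 in C3-/- tumors. The groups were well apart, with a log2 fold change of 0.96 (SE 0.17), an unadjusted p of 0.00024 and an adjusted p of 0.933 by edgeR, and an adjusted p of 0.00577 by DESeq2. Nr1h3, the oxysterol receptor LXR alpha, read 12.6, 13.6, 13.7 and 9.62 CPM in WT and 25.6, 14.7, 18.7 and 16.8 in C3-/- tumors, also without overlap (0.62, SE 0.21, edgeR adjusted p 0.960). Both were named for their small p. They were the 2 of the 70 tested genes whose C3-/- tumors all lay above WT, where 2.28% of all genes did. Vsig4, a receptor by which resident macrophages bind fragments of C3, had the smallest p of those that were lower. It read 3.61, 7.99, 6.55 and 4.94 CPM in WT and 2.76, 4.03, 1.51 and 3.12 in C3-/- tumors, where only C3-/- replicate 2 reached into the WT range (-1.01, SE 0.35, edgeR adjusted p 0.960).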

How the data were processed

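RNA from whole tumors was sequenced as poly-A libraries. The authors deposited, per gene and tumor, raw counts on mm39, counts divided by size factors (a signal here), FPKM, gene lengths and annotation (other), and also log2 fold changes and p-values of their own comparison, which were not used. The study's methods name STAR and HTSeq, whereas the submitters' processing notes name HISAT2 2.0.5 and DESeq2 1.20.0, so the aligner is not settled. The strand setting is not given in the sources used here. The deposited FPKM equalled the normalized count per gene length times 1 constant, to within 7.3e-12 percent.

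Counts were tested with edgeR 4.0.16 in R 4.3.3 (filterByExpr with a minimum count of 10, TMM scaling, quasi-likelihood test, genotype as the only term, Benjamini-Hochberg adjustment over 16610 genes, threshold 0.05). CPM were scaled by TMM. Single values were compared by exact permutation over 70 splits, on log2(CPM + 0.1), with SciPy 1.17.1. The common biological coefficient of variation was 0.297. Alternatives used DESeq2 1.42.0, limma 3.58.1, other filters, a replicate block and fewer tumors. Intervals are 95% and two-sided. A member and some sequences are not reported here, though counts and medians include all members. The other members are named, and of the further genes the 3 with the smallest p and the first in each direction, and the 10 genes most like Csf1r. Upk3b, Msln, Clec4f, Csf1 and Il34 were named after their values were seen. The members and lists were chosen with earlier results of these data known. Promoter sequences were read from GRCm39 with GENCODE vM39 and coordinates are of that build.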

Additional observations from a re-analysis of the deposited data

Results flagged for a closer look

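Among 82 groups of 4 values (41 members in 2 genotypes), 3 held a tumor far from its group by Dixon's ratio, where chance alone flags about 4.1. Cd68 was 49.4 CPM in WT replicate 3, against 38.5 to 39.1 in the other WT tumors. Spp1 was 5768 CPM in C3-/- replicate 4, against 7076 to 7192 in the other C3-/- tumors. Gpnmb was 13.7 CPM in WT replicate 3, against 21.2 to 22.4 in the other WT tumors, so the same WT tumor was high for 1 of these genes and low for the other.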

How the results depend on the processing

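Over 15 alternatives the count of members past an adjusted p of 0.05 stayed at 0, and of 598 refits of single members 548 kept their direction, 50 reversed it and 0 crossed the threshold. The reversals touched 23 members, and 17 members, Ptprc, Lyve1, Itgam and Ms4a7 among them, kept their direction in every refit. The count over all genes was 0 with edgeR, 16 with DESeq2, 4 without both WT replicate 4 and C3-/- replicate 1, and 0 to 4 with 1 tumor left out (4 without C3-/- replicate 1). DESeq2 called 1 of the other macrophage and monocyte genes, Cx3cr1. The cause was not tested.

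Without both WT replicate 4 and C3-/- replicate 1 Laptm5, Spi1, Ly6c2, Trem2, Apoe, Fcer1g, Tyrobp and Cd14 turned lower. With 1 tumor left out in turn, the members' median ran from -0.14 to 0.16, that of the tissue-resident genes from -0.73 to -0.22, of the monocyte-derived genes from -0.25 to 0.25 and of the lipid-associated genes from -0.11 to 0.15. With 1 tumor or that pair left out, the members that reversed had these ranges of the log2 fold change: Laptm5 -0.11 to 0.24, Spi1 -0.0089 to 0.45, Cd68 -0.39 to 0.0351, Cd84 -0.052 to 0.16, Maf -0.0765 to 0.26, Mrc1 -0.33 to 0.0318, Folr2 -0.0956 to 0.46, Ly6c2 -0.31 to 1.17, Plac8 -0.38 to 0.0497, Chil3 -0.66 to 0.29, Clec4e -0.16 to 0.32, Trem2 -0.16 to 0.41, Apoe -0.27 to 0.43, Lgmn -0.27 to 0.0626, Ctsb -0.26 to 0.0712, Retnla -0.79 to 0.23, Fcgr2b -0.0454 to 0.27, Fcgr3 -0.22 to 0.10, Fcer1g -0.20 to 0.34, Tyrobp -0.23 to 0.45, Cd14 -0.0858 to 0.28, Msr1 -0.39 to 0.10 and Ctss -0.20 to 0.12. Of members that did not reverse, some moved by over 1.5 times with 1 tumor left out, with ranges of Itgam -0.69 to -0.36, Lyz2 0.13 to 0.48, Aif1 0.19 to 0.66, Mertk -0.56 to -0.12, Cd5l -1.25 to -0.082, Spp1 0.03 to 0.29, Gpnmb -0.25 to -0.0045, Fcgr1 0.13 to 0.51 and Clec7a 0.18 to 0.47. The difference in the log2 ratio of Lyve1 to Csf1r, added after the data were seen, ran from -1.23 to -0.90 with 1 tumor left out.

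Same-numbered tumors did not all deviate together (correlations of -0.03, 0.49, -0.36 and 0.59, above 0 for replicates 2 and 4 and below 0 for replicates 1 and 3), so the numbers were not taken to pair them. With a replicate block 0 members and 0 genes passed, the members' median was 0.02 and that of the tissue-resident genes -0.54. With 4 tumors per group and a coefficient of variation near 0.297 between tumors, small fold changes were below what the data could resolve.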
